A study of Homo sapiens with 5 samples.

Results

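The genes described here are the insulin-like growth factor (IGF) binding proteins IGFBP1, IGFBP2, IGFBP3, IGFBP4, IGFBP6 and IGFBP7 and the receptors IGF1R and IGF2R. They were found by gene symbol, and all 8 were present among the 58929 genes of the tables. IGFBP2 was chosen by its measured values, which were low with RBMS1 overexpression and higher with both hairpins, so that those comparisons describe IGFBP2 and do not test it. The other 7 were taken as relatives of IGFBP2 or as IGF receptors. IGFBP5, the remaining classical binding protein, is outside the set and held between 1 and 21 counts per library.

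The libraries come from A549, an established human lung adenocarcinoma cell line, and RBMS1 encodes an RNA-binding protein. The 5 libraries fall into 4 groups. A single library each came from the sh control, the pCDH control and cells with stable RBMS1 overexpression (titled R1A), and 2 came from cells with stable RBMS1 knockdown by the hairpin sh1088 or sh1196. All cells were grown in F12K medium with serum and received cycloheximide, which arrests ribosomes, at 100 ug/mL 15 min before lysis, and lysates were digested with RNase I for 5 min. The design text calls the libraries ribosome footprints, while their molecule label reads total RNA, and "footprint" is used in the sense of the design text. The labels name no separate cultures, only the different hairpins, so a p-value here reflects the spread between single libraries, which may be technical. Matched RNA libraries were not analysed here, so that more mRNA and more ribosomes per mRNA cannot be told apart. In bulk cells, a larger share of producing cells and more footprints per cell cannot be told apart either.

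IGF1 and IGF2 are secreted growth factors that signal through IGF1R, a receptor tyrosine kinase that acts on the PI3K and AKT pathway. The IGF binding proteins are secreted, hold IGFs in the extracellular space and either restrain or prolong their action, and several also act without IGF. IGF2R, the cation-independent mannose 6-phosphate receptor, takes up IGF2 for degradation and carries lysosomal enzymes, and it does not signal as a kinase.

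These genes differ in the base composition of their coding sequence, with which the overexpression ratios moved. The coding sequence of IGFBP2 had 69.6% G and C, that of IGFBP4 68.9%, IGFBP6 66.4%, IGFBP3 64.6%, IGFBP7 64.3%, IGFBP1 60.1%, IGF1R 55.1% and IGF2R 52.3%. The first 60 coding bases are printed for both ends of that order and for IGFBP1, from the GENCODE release 29 transcripts, 5′ to 3′ with the start codon in capitals.
IGFBP2: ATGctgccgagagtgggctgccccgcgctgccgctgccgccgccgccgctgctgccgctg
IGFBP4: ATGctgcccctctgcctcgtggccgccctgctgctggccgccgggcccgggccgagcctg
IGFBP1: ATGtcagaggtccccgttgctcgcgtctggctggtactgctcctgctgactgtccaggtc
IGF2R: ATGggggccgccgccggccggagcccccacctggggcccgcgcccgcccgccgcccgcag
These openings had 80.0%, 80.0%, 61.7% and 90.0% G and C in that order, so the opening of IGF2R is the richest of the 4 although its whole coding sequence is the poorest of the 8.

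By GENCODE release 29 (GRCh38), whose build may differ from that of the authors, IGFBP2 lies on the plus strand at chr2:216632828-216664436, 7668 bp from IGFBP5. IGFBP1 (chr7:45888357-45893668, plus strand) and IGFBP3 (chr7:45912245-45921874, minus strand) are neighbours with a gap of 18576 bp. IGFBP4 is at chr17:40443461-40457731, IGFBP6 at chr12:53097436-53102345, IGF1R at chr15:98648539-98964530 and IGF2R at chr6:159969099-160113507, all on the plus strand. IGFBP7 is at chr4:57030773-57110385 on the minus strand and overlaps 3 genes on the other strand, POLR2B, IGFBP7-AS1 and UBE2CP3. IGF1R overlaps 2 small annotated genes on its own strand and IGF2R overlaps 1. The standard deviation that RSEM gives for the posterior count was at most 0.03 counts for these 8 genes in any library. IGFBP7-AS1 had 0 counts in all 5, and the counts of POLR2B and UBE2CP3 are not reported here.

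The libraries held 10327747 to 13980843 expected counts. The share on nuclear protein-coding genes ran from 37.7% (sh control) to 66.3% (pCDH control). Levels are given as scaled CPM, counts per 1000000 after TMM scaling over the 5 libraries. RBMS1, which checks the labels, was at 31.0 scaled CPM in the sh control against 18.3 and 13.4 for sh1088 and sh1196, and at 24.7 for the pCDH control against 37.0 with overexpression. Of all genes, 8.40% lay below the RBMS1 log2 ratio in sh1088, 9.32% in sh1196 and 71.3% below its overexpression ratio of 0.58. By TPM the knockdown direction was the opposite, with 1.59 for the sh control against 3.70 and 4.20, and overexpression (12.6) was close to the pCDH control (11.6). The median of all genes by TPM (pseudocount 1) was itself 0.78 in knockdown and -0.72 in overexpression. By FPKM RBMS1 was at 5.22 for the sh control against 8.43 and 8.56, and at 14.85 for the pCDH control against 23.37 with overexpression. The knockdown check of the labels thus holds by counts only, and the overexpression check by counts and FPKM. In knockdown RBMS1 stood at -0.93 on the log2 scale (SE 0.45), with an adjusted p of 0.828 by edgeR. A549 epithelial markers summed to between 7634 and 15071 scaled CPM. Those of fibroblasts summed to 2.37 to 9.81, endothelium to 0.155 to 1.18 and hepatocytes to 0.975 to 1.85. Immune markers summed to 21.4 to 88.5 with PTPRC and CD3E at 0 counts in all 5 libraries, and CD68, which held nearly all of that sum, was highest in the pCDH control.

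IGFBP2, a binding protein with a preference for IGF2, had 55 counts in the sh control, or 6.85 scaled CPM with a 95% counting interval of 5.16 to 8.91. The hairpin libraries were at 20.3 (17.5 to 23.3) for sh1088 and 30.8 (27.8 to 34.0) for sh1196. The pCDH control was at 110.5 (105.6 to 115.5), and overexpression, with 82 counts, at 6.91 (5.49 to 8.57). The pCDH control thus stood apart from the other 4 libraries, and the intervals of overexpression and the sh control overlapped. The highest library was 16.1-fold above the lowest. Such intervals hold counting error alone, as PCR duplicates are no independent molecules.

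IGFBP4, an inhibitory binding protein that is cleaved by the protease PAPPA, was the most abundant of the family in 4 of the 5 libraries by TPM, a unit per transcript length. Its scaled CPM was 510.5 for the sh control, 311.8 and 957 for sh1088 and sh1196, 3009 for the pCDH control and 628 for overexpression. The pCDH control was again the highest, and no neighbouring intervals in this order overlapped. By TPM in the pCDH control it stood at 1357, rank 56 of all genes.

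IGFBP6, which binds IGF2 far better than IGF1, was at 47.3 scaled CPM for the sh control, 39.6 and 111.5 for sh1088 and sh1196, 242.6 for the pCDH control and 41.4 for overexpression. The sh control, overexpression and sh1088 lay close together, with overlapping intervals between neighbours, and sh1196 and the pCDH control lay above them. IGFBP7, a secreted protein with low affinity for IGF, was at 30.5 scaled CPM for the sh control, 107 and 155 for sh1088 and sh1196, 150.5 for the pCDH control and 60.2 for overexpression. Here sh1196 and the pCDH control could not be told apart by counting error, and the sh control was lowest.

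IGFBP3, the main IGF carrier in blood, varied least among the binding proteins by scaled CPM. It had 124.9 for the sh control, 195.2 and 73.8 for sh1088 and sh1196, 252.2 for the pCDH control and 155.2 for overexpression. By this unit the hairpin libraries lay on either side of their control. Its TPM ran from 11.8 in the sh control to 253 in the pCDH control. IGFBP1, which is acutely regulated by insulin in liver, had 47.2 scaled CPM for the sh control, 249.7 and 63.7 for sh1088 and sh1196, 16.6 for the pCDH control and 23.0 for overexpression. By scaled CPM it was the one gene of the 8 that was lowest in the pCDH control, and its highest library, sh1088, was 15.0-fold above that. By TPM it was lowest in the sh control, at 6.77 against 11.1 in the pCDH control.

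IGF1R, the signalling receptor, had 149 scaled CPM for the sh control, 127.5 and 198 for sh1088 and sh1196, 238 for the pCDH control and 161 for overexpression. Its highest library was 1.87-fold above its lowest, the narrowest range of the 8 by scaled CPM, and overexpression and the sh control overlapped. IGF2R had 59.3 scaled CPM for the sh control, 86.5 and 159 for sh1088 and sh1196, 206 for the pCDH control and 146 for overexpression, with overlap between sh1196 and overexpression. Of the counts on both receptors, IGF2R took 28.5% (exact binomial 95% interval 26.3 to 30.7) for the sh control, 40.4% (38.3 to 42.6) for sh1088, 44.5% (43.1 to 46.0) for sh1196, 46.4% (45.3 to 47.5) for the pCDH control and 47.4% (45.8 to 49.1) for overexpression. The sh control therefore had the lowest share of IGF2R, and this share does not depend on how libraries are scaled. Per transcript length IGF1R was the higher receptor in all 5 libraries, with 8.48 TPM against 1.85 TPM for IGF2R in the sh control and 154 TPM against 47.9 TPM in the pCDH control.

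**Figure D1:**
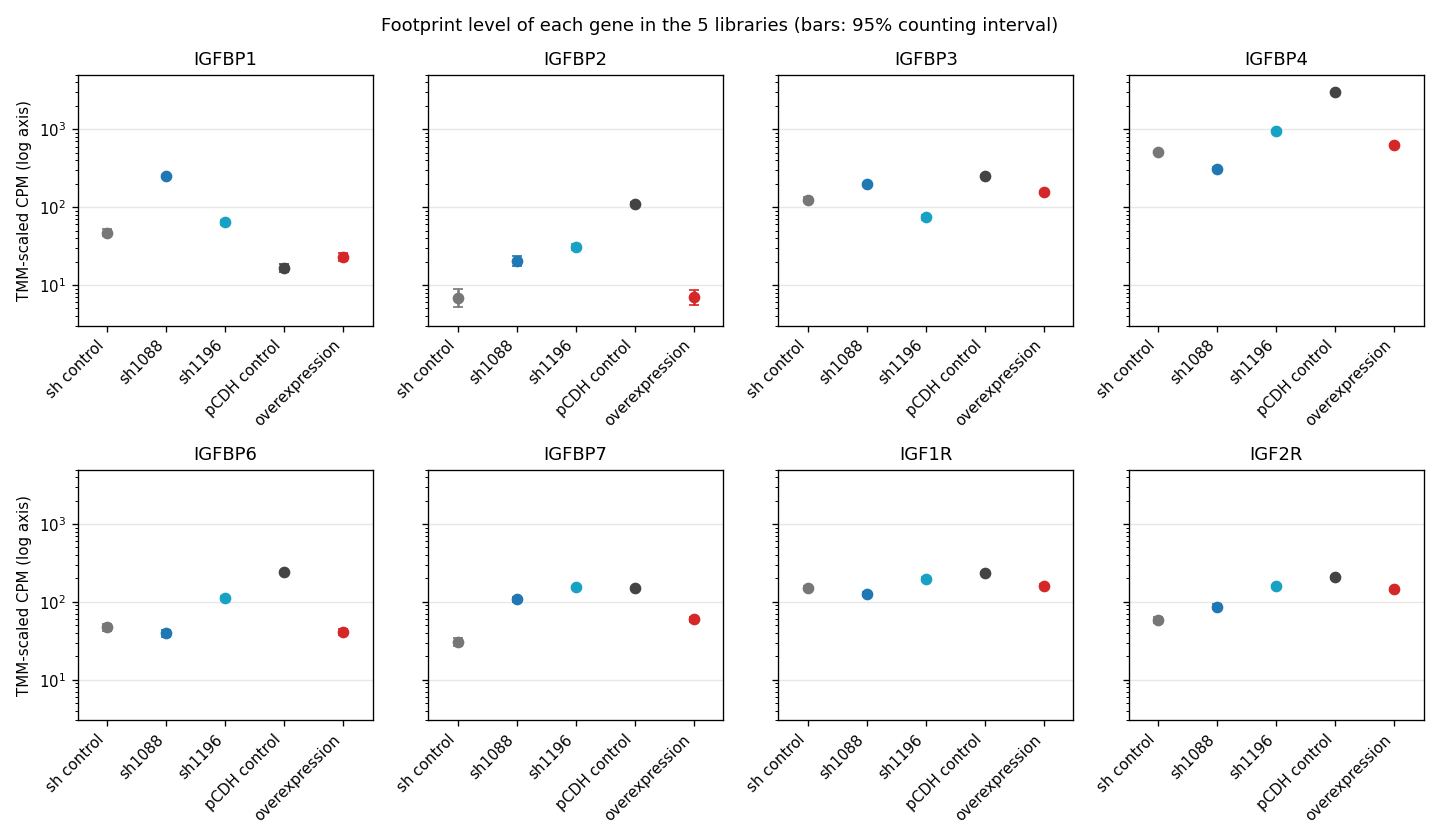
Scaled CPM (log axis) of the 8 genes in the 5 libraries, with 1 point per library and bars for the 95% counting interval. In 6 panels the pCDH control is the highest point, while IGFBP1 is highest in sh1088 at 249.7 and IGFBP7 is about level in sh1196 (155) and the pCDH control (150.5).

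Within a library, the make-up of the family does not depend on scaling between libraries. IGFBP4 took 56.8% of the summed TPM of IGFBP1 to IGFBP7 for the sh control, 24.1% and 50.4% for sh1088 and sh1196, 62.2% for the pCDH control and 56.0% for overexpression. In sh1088 IGFBP1 took 28.3%, against between 0.508% and 7.73% in the other 4 libraries, so that by TPM this library had a different leading binding protein. By counts per coding base, a fixed length, IGFBP4 led there too, with 35.1% against 28.0% for IGFBP1. IGFBP7 took 14.9% and 14.5% in the hairpin libraries, against 5.95% in the sh control, 5.55% in the pCDH control and 9.29% with overexpression. IGFBP2 took 1.94% for the sh control, 2.92% and 3.08% for sh1088 and sh1196, 6.76% for the pCDH control and 1.15% for overexpression. TPM rests on the transcript length that RSEM estimated in each library. For IGFBP2 the effective length was 728 nt in the pCDH control and 848 to 1163 nt elsewhere. By counts per coding base IGFBP2 took 2.35% in the pCDH control, 0.725% in the sh control and 0.615% with overexpression, the same order for these 3 libraries.

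**Figure D2:**
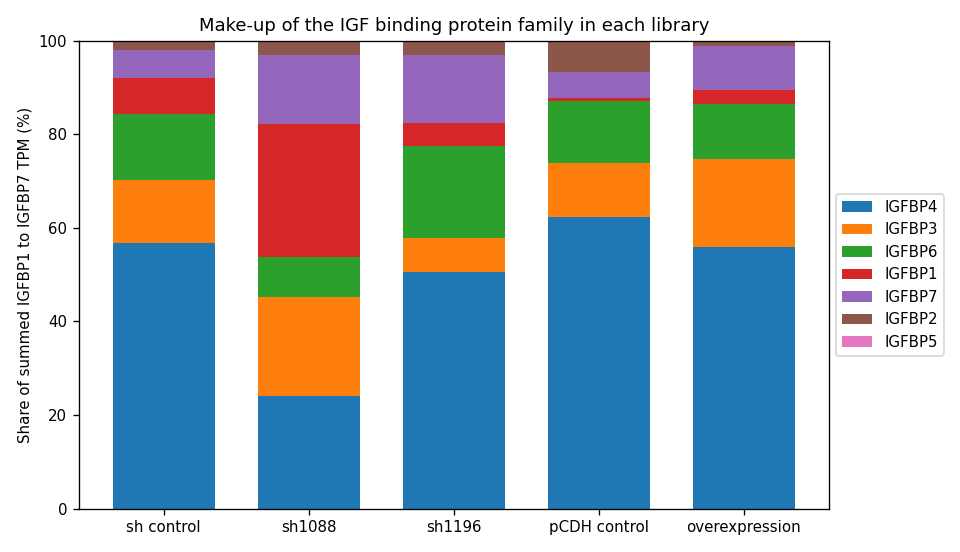
Stacked bars give the share (%) of the summed TPM of IGFBP1 to IGFBP7 that each gene took in each library. By this unit IGFBP4 leads everywhere except sh1088, where IGFBP1 took 28.3% and IGFBP4 24.1%, and IGFBP5 is too low to be seen.

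The first comparison asked whether knockdown of RBMS1 changed these genes. None of the 7 tested genes passed, and neither did any other of the 14913 genes tested by edgeR. IGFBP7 stood at a log2 fold change of 2.14 (SE 0.56, edgeR quasi-likelihood adjusted p = 0.828, unadjusted p = 0.00475), with log2 ratios of 1.82 (1.61 to 2.02) for sh1088 and 2.35 (2.16 to 2.54) for sh1196, higher in 2 of 2 hairpin libraries. DESeq2 gave it an adjusted p of 0.0745. In the authors' deposited table its log2 fold change was 2.13 with an adjusted p of 2.12e-07 and it was classed as up, as were 1.69% of the genes with an adjusted p there. IGFBP2 stood at 1.93 (SE 0.54), with 1.57 (1.13 to 2.03) and 2.17 (1.76 to 2.60) for the hairpins, and 1.93 in the authors' deposited table.

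IGFBP1 stood at 1.77 (SE 0.88, edgeR adjusted p = 0.828), with 2.40 for sh1088 and 0.43 for sh1196, so that 1 hairpin library set most of this value. In the authors' deposited table IGFBP1 was also classed as up, at 1.76 with an adjusted p of 0.0146. IGF2R stood at 1.08 (SE 0.57, edgeR adjusted p = 0.828), with 0.55 and 1.42 for sh1088 and sh1196. IGFBP3, IGFBP4, IGFBP6 and IGF1R lay at 0.14, 0.34, 0.71 and 0.16, and by scaled CPM each had 1 hairpin library above and 1 below the sh control. By TPM both hairpin libraries were above it for all 4, with IGFBP3 at 11.8 TPM against 45.6 and 40.3 and IGF1R at 8.48 TPM against 15.4 and 62.1. Their knockdown values by TPM with a pseudocount of 1 were 1.78 for IGFBP3 and 1.76 for IGF1R, where the median of all genes had moved to 0.78. All 8 genes passed the filter on low counts.

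Over all 14913 genes tested, edgeR called 0 (0.0%), with 876 at an unadjusted p under 0.05, DESeq2 called 15 and limma-voom 0. At an unadjusted p under 0.05, 3.27% of genes were higher, among them IGFBP7 alone of the 7 tested, and 2.61% were lower, with none of the 7. In sh1088, 3 of the 8 genes (IGFBP1, IGFBP2 and IGFBP7) were at least 2-fold above the sh control, where 3.36% of all genes were. In sh1196, 4 of the 8 (IGFBP2, IGFBP6, IGFBP7 and IGF2R) were, where 10.4% of all genes were. None of the 8 was at least 2-fold lower in either, where 3.85% (sh1088) and 13.1% (sh1196) of all genes were. IGFBP2 is among these counts although the same values chose it. The median log2 ratio of the 8 was 0.59 in sh1088 and 1.07 in sh1196, against -0.07 and 0.02 for all genes. Between the hairpins, IGFBP4 was higher in sh1196 by 1.62 (1.56 to 1.68) and IGFBP6 by 1.49 (1.33 to 1.66) on the log2 scale, and the log2 ratio of sh1196 to sh1088 was -1.97 (-2.09 to -1.86) for IGFBP1 and -1.40 (-1.52 to -1.29) for IGFBP3. At least 2-fold differences between the hairpins were seen for 6.33% of all genes in the higher and 6.93% in the lower direction.

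Overexpression was next compared with the pCDH control, 1 library each, so that it has no replicate check and no p-value is given. The log2 ratio was -4.00 (95% counting interval -4.34 to -3.68) for IGFBP2, -2.55 (-2.69 to -2.41) for IGFBP6, -2.26 (-2.30 to -2.23) for IGFBP4 and -1.32 (-1.44 to -1.20) for IGFBP7. These 4 genes were at least 2-fold lower, as were 13.7% of all genes, and none of the 8 was at least 2-fold higher, as 14.6% were. IGFBP3 stood at -0.70 (-0.78 to -0.62), IGF1R at -0.56 (-0.64 to -0.48), IGF2R at -0.50 (-0.59 to -0.42) and IGFBP1 at 0.47 (0.22 to 0.71), a direction that flips by TPM, to -0.20, with all genes at a median of -0.72. By TPM (pseudocount 1) IGFBP3, IGF1R and IGF2R stood at -2.08, -1.64 and -1.74, so that every gene but IGFBP1 was at least 2-fold lower, as were 3868 of 10438 genes. By scaled counts the median of the 8 was -1.01, against 0.06 for all genes. IGFBP2 is among the genes in these counts and this median although the same values chose it. In the authors' deposited table the log2 fold changes were -3.79 for IGFBP2, -2.24 for IGFBP6, -2.08 for IGFBP4, -1.19 for IGFBP7 and -1.10 for IGFBP3. Against the ratios by scaled counts, that of IGFBP3 was larger in size there, past 2-fold lower. Those of IGFBP2, IGFBP4, IGFBP6 and IGFBP7 were smaller in size. The reason for these differences was not examined.

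The values of this comparison went with base composition. Across 9947 nuclear protein-coding genes, which are no independent replicates, Spearman's rho between the ratio and transcript GC content was -0.58. With coding GC content it was -0.59. For the 8 genes rho was -0.83 with transcript and -0.88 with coding GC content, given as a description over genes that share both libraries. IGFBP2, which this same ratio chose, is among them and has the highest GC content of the 8 by both measures. The mean fragment length, taken from RSEM's transcript and effective lengths, was 52.3 nt in the pCDH control and 40.8 nt with overexpression, the longest and shortest of the 5. These lengths are above those usual for ribosome footprints, and where the reads lie within transcripts was not analysed here. With the trend over transcript GC content taken out, IGFBP2 stood at -2.88, IGFBP6 at -1.65, IGFBP4 at -1.47, IGFBP7 at -1.23, IGF2R at -0.59, IGF1R at -0.51, IGFBP3 at 0.20 and IGFBP1 at 0.43. The same 4 genes, IGFBP2 among them, then remained at least 2-fold lower, where 8.23% of all genes were (8.85% were higher). A trend over coding GC content was not fitted. At 52.1% transcript GC and 64.3% coding GC, IGFBP7 had a trend of -0.09, against -0.90 for IGFBP3 and IGFBP6. Its value thus moved only from -1.32 to -1.23. The part of fragment length in these values was not tested. For the hairpins rho with transcript GC content over all such genes was 0.02 (sh1088) and 0.12 (sh1196). With the trend taken out IGFBP2 stood there at 1.62 and 2.11 and IGFBP7 at 1.88 and 2.27.

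**Figure D3:**
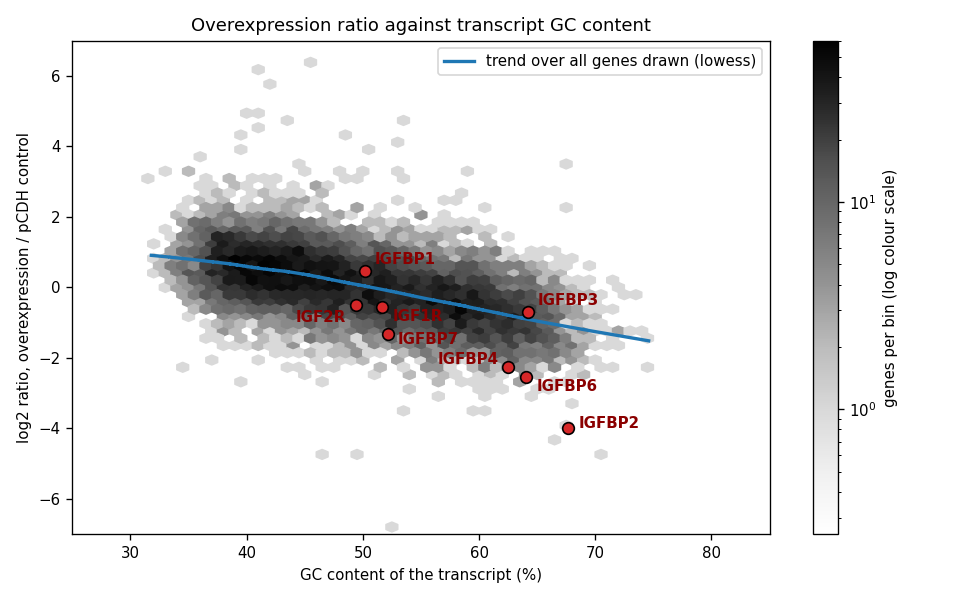
The log2 ratio of overexpression to the pCDH control against transcript GC content (%) for 9947 nuclear protein-coding genes (grey bins) with their trend (blue line) and the 8 genes (red). IGFBP2, at 67.7% GC, has a ratio of -2.88 relative to the trend, and IGFBP3, at 64.2%, has 0.20.

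The 2 controls differed widely from each other in these genes. The log2 ratio of the pCDH control to the sh control was 4.01 (3.63 to 4.43) for IGFBP2, 2.56 (2.51 to 2.61) for IGFBP4, 2.36 (2.21 to 2.51) for IGFBP6 and 2.30 (2.11 to 2.50) for IGFBP7. It was 1.80 (1.66 to 1.94) for IGF2R, 1.01 (0.91 to 1.11) for IGFBP3, 0.68 (0.58 to 0.77) for IGF1R and -1.50 (-1.73 to -1.28) for IGFBP1. So 6 of the 8 were at least 2-fold higher in the pCDH control, where 17.2% of all genes were, and 1 was at least 2-fold lower, where 19.0% of all genes were. IGFBP2 is in this count although ratios to these same 2 controls chose it, so its value here is a description. Of each 1000000 counts on nuclear protein-coding genes, IGFBP1 to IGFBP7 together held 7107 in the pCDH control, 1409 in the sh control, 1796 for sh1088, 2633 for sh1196 and 1667 for overexpression. Without IGFBP4 these sums were 1452, 474, 1192 (sh1088), 823 (sh1196) and 524 (overexpression). The ratio of the controls went with GC content as well. Over 10012 genes rho was 0.39 with transcript and 0.37 with coding GC content, and over the 8 genes it was 0.62 and 0.79. The 8 again include IGFBP2, so these 2 values are a description only. With the trend over transcript GC content taken out IGFBP2 stood at 3.16, IGFBP4 at 1.87, IGFBP6 at 1.61 and IGFBP3 at 0.26. IGFBP3 was then no longer 2-fold higher. These comparisons share control libraries with those above, and the vector and the library cannot be told apart.

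**Figure D4:**
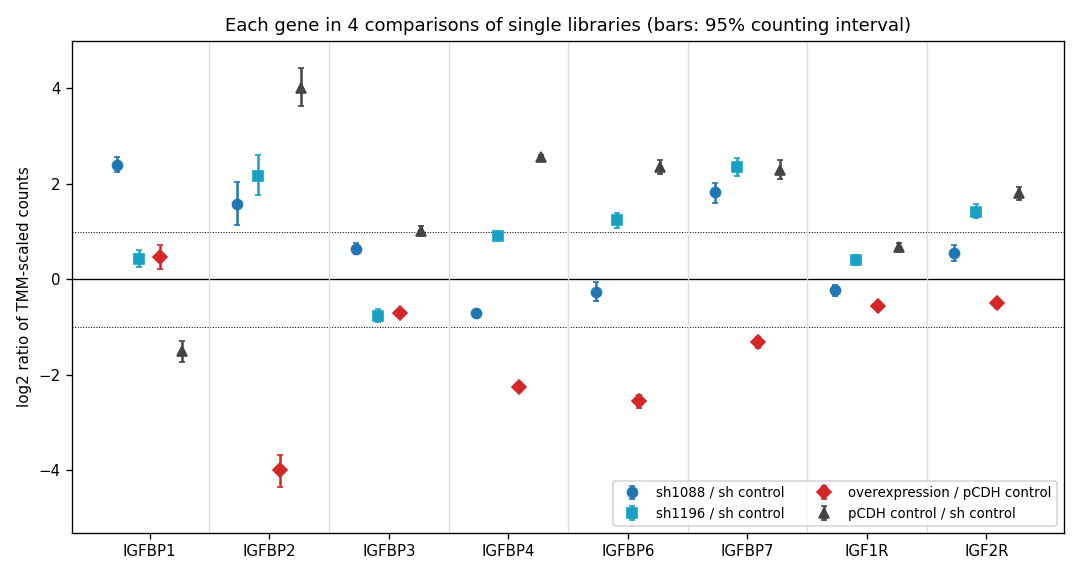
Log2 ratios of scaled counts for the 8 genes in 4 comparisons of single libraries, with bars for the 95% counting interval and dotted lines at 2-fold. For IGFBP2 the ratio of the controls (4.01) and the overexpression ratio (-4.00) are of about equal size and opposite sign, and the hairpin ratios are 1.57 and 2.17. IGFBP2 was chosen by its overexpression and hairpin values, which use both controls.

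Set against the sh control instead, overexpression gave a log2 ratio of 0.01 (-0.50 to 0.53) for IGFBP2, 0.30 (0.24 to 0.35) for IGFBP4, -0.19 (-0.39 to 0.01) for IGFBP6 and 0.98 (0.77 to 1.20) for IGFBP7. None of these 4 was then at least 2-fold lower. Of the 8, IGF2R was at least 2-fold higher, where 9.08% of all genes were, and IGFBP1 at least 2-fold lower, where 10.6% were. IGFBP2 was lower than the pCDH control in both hairpin libraries, at -2.45 (-2.67 to -2.23) and -1.84 (-2.00 to -1.69). Against the pCDH control 4 of the 8 were at least 2-fold lower in each hairpin library, where 15.9% (sh1088) and 11.5% (sh1196) of all genes were. IGFBP2 is in both counts although a ratio to this control helped to choose it. IGFBP1 was at least 2-fold higher in both hairpin libraries, where 14.6% and 11.0% of all genes were. Thus each of the other 4 libraries, knockdown and overexpression alike, had less IGFBP2 than the pCDH control, and likewise for IGFBP3, IGFBP4, IGFBP6, IGF1R and IGF2R by scaled CPM.

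The direction for which IGFBP2 was picked, higher in both hairpins than the sh control and lower with overexpression than the pCDH control, was also shown by IGFBP7 and IGF2R. At any size it was shown by 17.5% of 10562 genes with a mean scaled CPM of at least 5, and the reverse by 21.4% and by none of the 8. With at least 2-fold in each of the 3 ratios it was shown by IGFBP2 and IGFBP7, among 67 genes (0.634%), and the reverse by 0.596% and none of the 8. With the controls exchanged, 21.0% of genes showed the direction at any size and 1.65% at 2-fold or more, and of the 8 only IGFBP1 did, at both sizes. The reverse was then shown by IGFBP2, IGFBP3, IGFBP4, IGF1R and IGF2R, as by 22.2% of genes, and at 2-fold or more by 0.738% and none of the 8.

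Over the 5 libraries, the genes with the pattern of levels nearest to that of IGFBP2 were CALR, a calcium-binding chaperone, SEMA4C, a semaphorin, IGSF8, a membrane protein of the immunoglobulin superfamily, EID3 and TMED1, a membrane protein of the secretory pathway. Nearness was the Euclidean distance of centred log2 CPM, which was 1.20, 1.23, 1.36, 1.37 and 1.38 for these 5 and had a median of 3.48 over 8570 genes. CALR stood at 309.6 scaled CPM for the sh control, 750.3 and 965 for sh1088 and sh1196, 2053 for the pCDH control and 397 for overexpression, the same order as IGFBP2. IGFBP6 (distance 1.62) and IGFBP7 (1.97) were the nearest of the other 7 genes, and IGFBP1 (4.88) the farthest.

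Of the ligands, IGF1 had 5 counts in the sh control and 0 in the other 4 libraries. IGF2 had 181.7 scaled CPM for the sh control, 34.3 and 67.0 for sh1088 and sh1196, 83.8 for the pCDH control and 12.5 for overexpression. The ligand was thus below its own control in both hairpin libraries and with overexpression. In knockdown it stood at -1.81 on the log2 scale (SE 0.53), with an adjusted p of 0.828 by edgeR, and its overexpression log2 ratio was -2.75. The readthrough gene INS-IGF2 and a second entry under the symbol IGF2 had 0 counts in all 5 libraries, and the division of reads among them is uncertain. INSR, the insulin receptor, was between 4.98 and 15.7 scaled CPM, with a knockdown log2 fold change of 0.97 (SE 0.57).

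Of 11 other binding proteins and secreted proteins with an IGFBP-type domain or a name in that family, 7 were tested in knockdown. Of these, 6 had positive log2 fold changes and 0 passed (median 1.88, against 0.07 for all genes). As edgeR called 0 of all 14913 genes tested, that 0 passed tells nothing about this list or the later ones. The 3 most abundant of the 11 were matricellular CCN proteins. CCN1 stood at 1.93 (SE 0.90), CCN2 at 1.88 (SE 0.62) and CCN5 at 1.92 (SE 0.77) in knockdown, and their overexpression log2 ratios were -0.95, -2.37 and -2.19. The log2 ratios of sh1088 and sh1196 were 0.55 and 2.58 for CCN1, 1.18 and 2.30 for CCN2, and 2.49 and 0.87 for CCN5. A single hairpin library thus set most of the knockdown value of CCN1 and of CCN5. Like most of the binding proteins, all 3 were higher in the pCDH control than in the sh control, by 1.46, 1.96 and 2.47 on the log2 scale.

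In a list of IGFBP proteases and their inhibitors, 12 genes were tested, 0 passed, as over all genes (0.0%), and the median was 0.21. CTSD, the lysosomal protease cathepsin D, stood at 0.13 (SE 0.54), ADAM9 at 0.29 (SE 0.60) and PRSS23 at -0.42 (SE 0.51). Their overexpression log2 ratios were -1.02, -1.46 and -0.88, while over the 11 genes of the list with a ratio the median was 0.0. Of these 11, 2 were at least 2-fold lower, as were 13.7% of all genes. At least 2-fold higher was 1 of the 11, as were 14.6% of all genes. For the sorting pathway that IGF2R belongs to, 13 genes were tested, 0 passed and the median was 0.24. M6PR, the smaller mannose 6-phosphate receptor, had 56.4 scaled CPM for the sh control, 92.7 and 153 for sh1088 and sh1196, 260.5 for the pCDH control and 115 for overexpression, the same order of libraries as IGF2R. SNX1 and VPS29 had other orders, with overexpression log2 ratios of -0.05 and 1.17, and VPS29 was lowest in the pCDH control (31.4 scaled CPM). The overexpression median of this list was -0.05.

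Genes downstream of the receptors are given against an all-gene knockdown median of 0.07, which library size scaling moves to 0.62, a shift larger than the size of either list median given here. Of 10 receptor substrates and adaptors tested, 3 had positive log2 fold changes in knockdown, 0 passed and the median was -0.41, with GRB2 at -0.61 (SE 0.50), SHC1 at -0.44 (SE 0.46) and PTPN11 at -0.77 (SE 0.43). Of 19 genes of PI3K, AKT and mTOR signalling, 7 had positive values, 0 passed and the median was -0.18. AKT2, a kinase of this pathway, stood at -0.60 (SE 0.46) and GSK3B, a kinase that AKT inhibits, at -0.71 (SE 0.45). In overexpression the medians of these lists were -0.18 and 0.44. The 3 IGF2 mRNA-binding proteins, which bind IGF2 and other transcripts, stood at 0.32 (IGF2BP1), 0.94 (IGF2BP2) and 0.73 (IGF2BP3) in knockdown, and 0 passed. Over all genes 0 (0.0%) passed as well.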

How the data were processed

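Per the file headers, the authors deposited, for each library, gene-level RSEM expected counts, TPM and FPKM. They also deposited 1 comparison table for each arm with the mean normalised count as a signal value, the log2 fold change and p-values. RSEM 1.3.1, STAR 2.4.2, Bowtie and DESeq2 appear in the submitters' processing notes without stated roles, and the genome build was not given in the sources used here. Of 58929 identifiers 58656 matched GENCODE release 29 without the version number. Expected counts were rounded. Knockdown was tested against the sh control with edgeR 4.0.16 in R 4.3.3 (quasi-likelihood, robust, TMM, filterByExpr, Benjamini-Hochberg at 0.05), with residual degrees of freedom of 1 and the single control taken to vary as the hairpin libraries do. Ratios of single libraries used TMM over the 5 libraries, with exact conditional 95% counting intervals, and background shares over genes with a mean scaled CPM of at least 5. The GC trend was a lowess fit (statsmodels 0.14.6, fraction 0.3) on transcripts with the longest coding sequence. DESeq2 1.42.0 and limma-voom (limma 3.58.1) were alternatives. Only the edgeR fit and the counting interval were run on simulated counts with known folds. Those counts cannot show whether the single control varies as the hairpin libraries do. The members and gene lists were chosen with earlier results of these data known. Beyond them the text names RBMS1, the 3 most abundant genes of most lists and the 5 genes nearest to IGFBP2. Results for some genes of these lists are not reported here.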

Additional observations from a re-analysis of the deposited data

How the results depend on the processing

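Knockdown rests on 1 residual degree of freedom, and 3 of the 4 groups hold 1 library; the lowest IGFBP2 level rests on 55 counts. No paired analysis was possible because the labels give no replicate numbers shared by the groups. The number of genes called in knockdown was 0, also with DESeq2 size factors, limma-voom and a fit of all 5 libraries. It was 27 with library size scaling, 5 with TMM over nuclear protein-coding genes, 102 with no low count filter, 15 with DESeq2 and 93 with the pCDH control in place. None of the 7 tested genes had an adjusted p under 0.05 in any of these fits. The median knockdown value of all genes was 0.07, but 0.62 with library size scaling, 1.16 by TPM with a pseudocount of 0.1 and 0.78 with 1, and 0.51 by FPKM. For IGFBP2 the knockdown log2 fold change was 2.54 with library size scaling, 2.52 by TPM with a pseudocount of 0.1 and -2.10 with the pCDH control in place. With that control IGFBP3 stood at -0.89, IGFBP4 at -2.23, IGFBP6 at -1.67, IGFBP7 at -0.18, IGF1R at -0.53 and IGF2R at -0.73, all reversed. With limma-voom IGFBP3 stood at -0.01. Leaving out either hairpin library gave -0.76 to 0.64 for IGFBP3, -0.71 to 0.91 for IGFBP4, -0.26 to 1.24 for IGFBP6, -0.23 to 0.41 for IGF1R, 0.43 to 2.40 for IGFBP1, 1.57 to 2.17 for IGFBP2, 1.82 to 2.35 for IGFBP7 and 0.55 to 1.42 for IGF2R. For overexpression IGFBP2 stood at -2.88 with the GC trend taken out, -5.01 and -5.31 by TPM (pseudocounts 1 and 0.1), -4.62 by FPKM and 0.01 (-0.50 to 0.53), no detectable difference, with the sh control in place. There IGFBP1 (-1.04), IGFBP3 (0.31), IGFBP4 (0.30), IGFBP7 (0.98), IGF1R (0.11) and IGF2R (1.30) changed sign, and IGFBP6 (-0.19) did not. The median of all genes was -0.72, -0.79 and -0.25 by those units. Genes at least 2-fold higher numbered 1524, against 880 with the GC trend taken out, 332 and 427 by TPM, 899 by FPKM, 944 with the sh control in place and 6368 with no low value filter. Genes at least 2-fold lower numbered 1426, against 819 with the trend out, 3868 and 4322 by TPM and 5352 with no filter. Of 2-fold differences 51.7% were higher, against 41.0% with library size scaling, 7.90% and 8.99% by TPM and 29.8% by FPKM. TMM over these 2 libraries alone was an alternative chosen after seeing the data. The cause of these differences was not tested.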

Other observations

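The transcript length that RSEM weighted by abundance moved between libraries for several of these genes, which enters TPM and FPKM but not counts. The effective length of IGFBP3 was 2235 nt for the sh control, 1539 and 1124 nt for sh1088 and sh1196, 969 nt for the pCDH control and 1605 nt for overexpression. That of IGF1R ran from 3702 nt in the sh control to 1499.9 nt in the pCDH control, and that of IGF2R from 7798 nt in sh1088 to 4180.2 nt in the pCDH control. For IGFBP4 it stayed between 2154 and 2165 nt, and for IGFBP1 between 1458 and 1474 nt. For IGFBP2, IGFBP3, IGF1R and IGF2R the pCDH control had the shortest estimate of the 5 libraries, while for IGFBP6 sh1196 did, at 649 nt.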
